A study of Mus musculus with 69 samples.

Results

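Gluconeogenesis makes glucose from lactate, glycerol and amino acids, and the proximal tubule is the renal site of this pathway. Ammonia production runs beside it: glutamine taken up by the tubule cell loses its nitrogen as ammonium, and the remaining carbon skeleton can be passed to glucose through phosphoenolpyruvate. The described set holds 8 genes of these steps, chosen by symbol: Pck1, Pck2, Fbp1, G6pc, Pcx, Glud1, Glul and Slc38a3. All 8 were found in each of the 4 deposited tables, out of 56783 distinct gene identifiers over the tables, and no symbol was absent. A mean of at least 1 TPM (a transcript abundance scaled to gene length and library total) over animals was needed for testing. All 8 genes passed this filter in both proximal tubule tables, and 7 passed in both collecting duct tables, where Slc38a3 was under it.

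Their roles order them along the pathway. Pcx (ENSMUSG00000024892) encodes pyruvate carboxylase, which makes oxaloacetate in the mitochondrion. Pck1 (ENSMUSG00000027513) and Pck2 (ENSMUSG00000040618) encode the cytosolic and the mitochondrial phosphoenolpyruvate carboxykinase. Fbp1 (ENSMUSG00000069805) encodes fructose-bisphosphatase and G6pc (ENSMUSG00000078650) the catalytic subunit of glucose-6-phosphatase, which releases free glucose. Slc38a3 (ENSMUSG00000010064) encodes a basolateral glutamine carrier that in the healthy kidney is known mainly from the last segment of the proximal tubule. Glud1 (ENSMUSG00000021794) encodes glutamate dehydrogenase, which frees ammonium from glutamate, and Glul (ENSMUSG00000026473) encodes glutamine synthetase, which binds ammonium to glutamate.

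RNA had been sequenced from tubules dissected from kidneys of wild-type male C57BL/6 mice, for which the labels give an age of 7 weeks. The mice underwent a sham operation or unilateral nephrectomy (UNx), and the tubules came from the proximal tubule's first segment (PT-S1) or from cortical collecting ducts (CCD), collected 24 h or 72 h later. For PT-S1 at 24 h, 3 sham animals gave 8 libraries and 4 UNx animals gave 9, and at 72 h each group had 12 libraries from 5 animals. For CCD at 24 h, 4 sham animals gave 8 libraries and 3 UNx animals gave 7, and at 72 h 4 sham animals gave 7 and 4 UNx animals gave 6. Strain, sex and genotype were shared by all groups, and how many tubules went into a library is not given in the sources used here. Means are over animals with their SD, and n is the number of animals.

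The values are TPM, so the sequencing depth is unknown and no counting error was computed. Correlated with each other library of its table, 5 libraries had a median r under 0.92: 2 of sham animals in PT-S1 24 h, 2 of UNx animals in PT-S1 72 h and 1 of a sham animal in CCD 72 h. The changes of the 8 genes were also computed without them. The proximal marker Slc34a1 stood at a sham mean of 9082 TPM for PT-S1 and of 30.3 TPM for CCD at 24 h, and all 8 early proximal markers had a mean of at least 1 TPM in PT-S1. At 24 h the principal cell marker Aqp2 stood at a sham mean of 22506 ± 13166 TPM (SD, n = 4) for CCD and of 0.095 TPM for PT-S1. Of 6 markers of the last proximal segment, 4 had means of at least 1 TPM in sham PT-S1 at both times. Cyp7b1 and Slc7a12 had means under 1 TPM there, and Cyp7b1 had a sham mean of 68.6 TPM in CCD at 24 h. The sum of the 6 ran from 700 to 2282 TPM over sham PT-S1 libraries at 24 h and from 430 to 6811 TPM at 72 h. Slc7a13, another of these markers, ranged from 0.14 to 828 TPM over the sham PT-S1 libraries. The median change of all genes tested between UNx and sham, on the log2(TPM + 1) scale, was -0.19 in PT-S1 24 h and -0.29 in PT-S1 72 h, and moved to 0.012 and 0.019 with median-ratio scaling. The changes of single genes in PT-S1 are to be read against these medians, which were -0.038 and 0.01 in CCD at 24 h and 72 h.

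The start regions of 3 of the genes are shown because the segment levels of these enzymes, given next, differ in direction: Pck1 and G6pc, abundant in PT-S1, and Pck2, more abundant in CCD. Each runs from 250 bases before to 50 bases after the annotated start, 5′ to 3′ on the gene's strand, from RefSeq on build GRCm38.p6, which is not the build of the tables. Entries were found for 7 of the 8 genes. Pck1 lies at chr2:173152823-173153122 on the plus strand, G6pc at chr11:101367466-101367765 on the plus strand and Pck2 at chr14:55540016-55540315 on the plus strand. Capitals mark matches to any of 3 motifs searched on both strands: the cyclic AMP response element forms TTACGTNA and TGACGTCA, and the HNF4 site CAAAGTCCA.
Pck1: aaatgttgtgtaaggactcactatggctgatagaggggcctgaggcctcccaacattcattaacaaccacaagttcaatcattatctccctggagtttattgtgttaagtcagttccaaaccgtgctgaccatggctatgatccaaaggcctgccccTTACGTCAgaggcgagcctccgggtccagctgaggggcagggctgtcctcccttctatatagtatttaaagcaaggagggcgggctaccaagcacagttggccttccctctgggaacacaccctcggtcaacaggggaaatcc
G6pc: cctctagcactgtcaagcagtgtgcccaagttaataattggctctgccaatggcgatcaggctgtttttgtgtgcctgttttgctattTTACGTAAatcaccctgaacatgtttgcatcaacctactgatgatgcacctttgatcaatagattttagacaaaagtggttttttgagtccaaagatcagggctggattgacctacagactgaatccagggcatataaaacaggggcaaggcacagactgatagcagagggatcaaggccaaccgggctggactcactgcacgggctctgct
Pck2: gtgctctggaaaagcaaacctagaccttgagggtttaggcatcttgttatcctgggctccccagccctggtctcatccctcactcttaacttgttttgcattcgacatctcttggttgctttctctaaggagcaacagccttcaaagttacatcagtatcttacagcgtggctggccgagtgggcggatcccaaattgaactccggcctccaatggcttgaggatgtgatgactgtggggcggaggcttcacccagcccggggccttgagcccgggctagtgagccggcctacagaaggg
TTACGTNA stood in the Pck1 region as TTACGTCA, starting at position -93 from the start, and in the G6pc region as TTACGTAA, starting at -162. Of 32851 promoter windows of the same length, 0.898% held TTACGTNA, 1.79% held TGACGTCA and 0.475% held CAAAGTCCA. None of the 3 motifs was found in the windows of Pck2, Fbp1, Pcx, Glud1 or Glul, which says only that these letters are not there. A match is a description of sequence and was not tied to any measured change.

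In sham animals the genes fell into 3 patterns across the segments. These levels come from tables normalized separately, so they are set side by side without a test. Pck1 averaged 7611 ± 1501 TPM (SD, n = 3) in PT-S1 and 42.8 ± 26.6 TPM (SD, n = 4) in CCD at 24 h, so that the CCD level was 0.563% of the PT-S1 level. Fbp1 averaged 3659 ± 584 TPM (SD, n = 3) and 34.1 ± 19.3 TPM (SD, n = 4), or 0.933%. G6pc averaged 787 ± 149 TPM (SD, n = 3) and 3.64 ± 2.90 TPM (SD, n = 4), or 0.462%. Pcx, at 744 ± 305 TPM (SD, n = 3) against 12.3 ± 4.64 TPM (SD, n = 4), stood at 1.65% at 24 h and 5.28% at 72 h. These 4 enzymes were abundant in PT-S1 and low in CCD, and the animals of the segments did not overlap for any of these 4 genes.

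Pck2 ran the other way. It averaged 11.9 ± 2.71 TPM (SD, n = 3) in PT-S1 and 63.2 ± 4.36 TPM (SD, n = 4) in CCD at 24 h, and 13.0 ± 0.868 TPM (SD, n = 5) and 59.6 ± 13.3 TPM (SD, n = 4) at 72 h. Its CCD level was 533% of the PT-S1 level at 24 h and 459% at 72 h, and the lowest CCD animal, at 41.9 TPM, stood above the highest PT-S1 sham animal, at 14.1 TPM. In PT-S1 sham libraries at 24 h there were 0.00109 to 0.00231 Pck2 transcripts for each Pck1 transcript, whereas in CCD sham libraries the ratio ran from 0.664 to 8.54 at 24 h and from 0.43 to 36.9 at 72 h. The mitochondrial form was thus the more abundant of the pair in most CCD libraries, with a median ratio of 1.55 at 24 h and 19.7 at 72 h.

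The ammonia genes were shared more evenly. Glud1 averaged 249 ± 68.3 TPM (SD, n = 3) in PT-S1 and 92.0 ± 9.85 TPM (SD, n = 4) in CCD at 24 h, and 128 ± 21.2 TPM (SD, n = 5) and 87.2 ± 13.0 TPM (SD, n = 4) at 72 h. Glul averaged 146 ± 16.4 TPM (SD, n = 3) and 47.1 ± 4.65 TPM (SD, n = 4) at 24 h, and 188 ± 7.18 TPM (SD, n = 5) and 25.7 ± 7.97 TPM (SD, n = 4) at 72 h. Slc38a3 was low in both segments of sham animals, at 1.89 ± 0.0969 TPM (SD, n = 3) in PT-S1 and 0.768 ± 0.192 TPM (SD, n = 4) in CCD at 24 h.

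The order of the levels differed between the segments. In sham PT-S1 at 24 h it ran Pck1, Fbp1, G6pc, Pcx, Glud1, Glul, Pck2 and Slc38a3. The animals of Pck1, from 6403 to 9291 TPM, and of Fbp1, from 3133 to 4288 TPM, did not overlap. Those of G6pc, from 674 to 956 TPM, and of Pcx, from 526 to 1093 TPM, did, and those of Glud1, from 188 to 323 TPM, lay above those of Glul, from 132 to 164 TPM. In sham CCD at 24 h Glud1 came first and Pck2 second, with animals of 79.8 to 104 TPM and 58.4 to 69.0 TPM. Glul, Pck1 and Fbp1 followed with overlapping animals, then Pcx, G6pc and Slc38a3.

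**Figure D1:**
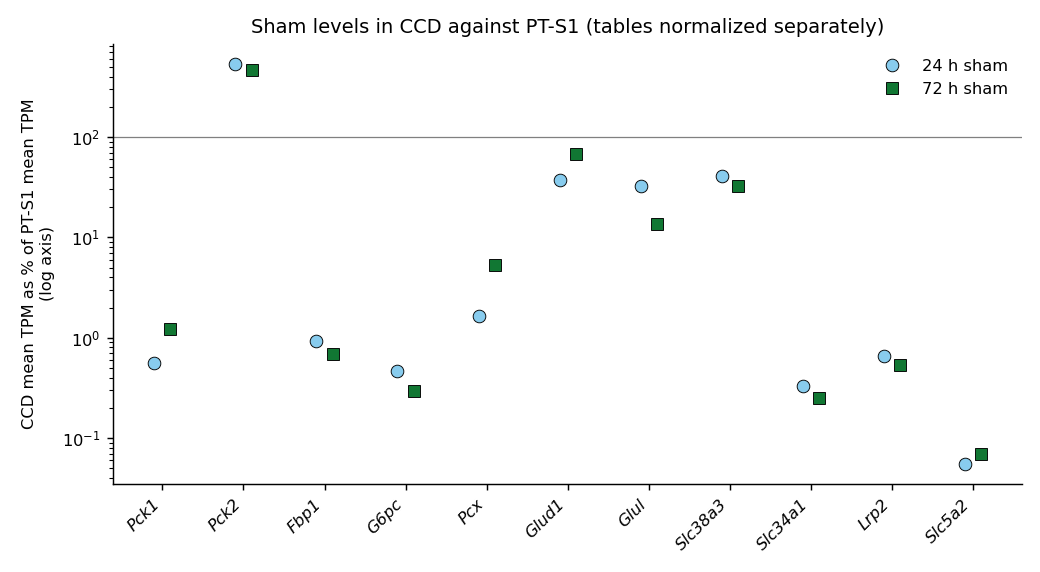
Sham level in CCD as a percent of the sham level in PT-S1 (log axis), at 24 h (circles) and 72 h (squares), for the 8 genes and for 3 proximal markers; each point is a ratio of means over animals. Pck1, Fbp1 and G6pc lie between 0.292% and 1.21%. Of the proximal markers, Slc34a1 lies at 0.333% and 0.25%, Lrp2 at 0.661% and 0.533%, and Slc5a2 lower, at 0.0552% and 0.0691%. Pcx lies at 1.65% and 5.28% and Pck2 at 533% and 459%, with Glud1, Glul and Slc38a3 between Pcx and Pck2.

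The low CCD levels of Pck1, Fbp1 and G6pc came together with traces of proximal markers. Slc34a1 stood in sham CCD at 0.333% of its PT-S1 level at 24 h and 0.25% at 72 h, and Slc5a2 at 0.0552% and 0.0691%. The summed level of the 8 early proximal markers ran from 9.62 to 122 TPM in sham and from 17.8 to 104 TPM in UNx libraries of CCD 24 h, and from 4.41 to 79.8 TPM and 3.72 to 40.8 TPM at 72 h. Slc5a12, Lrp2 and Cubn had means under 1 TPM in every CCD group. At 24 h the ratio of Pck1 to Slc34a1 was 0.648 to 1.12 in sham PT-S1 libraries and 0.73 to 6.51 in those of CCD. That of Fbp1 to Slc34a1 was 0.178 to 0.9 and 0.672 to 3.11, and that of G6pc 0.0552 to 0.167 and 0.0364 to 0.186. At 72 h the Pck1 ratio was 0.128 to 0.367 and 0.412 to 1.34, without overlap. The Fbp1 ratio was then 0.41 to 0.796 and 0.806 to 2.92, and the G6pc ratio 0.0779 to 0.119 and 0.065 to 0.175. The part of proximal RNA in the CCD values was not tested. In such bulk samples, fewer cells of a type and less RNA per cell cannot be told apart.

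Pck1 was the gene whose sham level differed most between the 2 PT-S1 tables. The sham animals held 7138, 9291 and 6403 TPM at 24 h and 911, 1343, 738, 1804 and 2983 TPM at 72 h, with no overlap. Pcx, at 744 against 355 TPM, and Glud1, at 249 against 128 TPM, were also lower at 72 h, while Fbp1, at 3659 against 3702 TPM, and G6pc, at 787 against 736 TPM, were close. A ratio within a library does not depend on the scaling of the table. Pck1 transcripts per G6pc transcript ran from 5.06 to 16.5 in the 8 sham libraries of 24 h and from 1.09 to 3.57 in the 12 of 72 h, and UNx libraries gave 6.11 to 11.9 and 1.68 to 4.22. The tables differ in time after operation and in any batch that goes with it, which cannot be told apart.

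**Figure D2:**
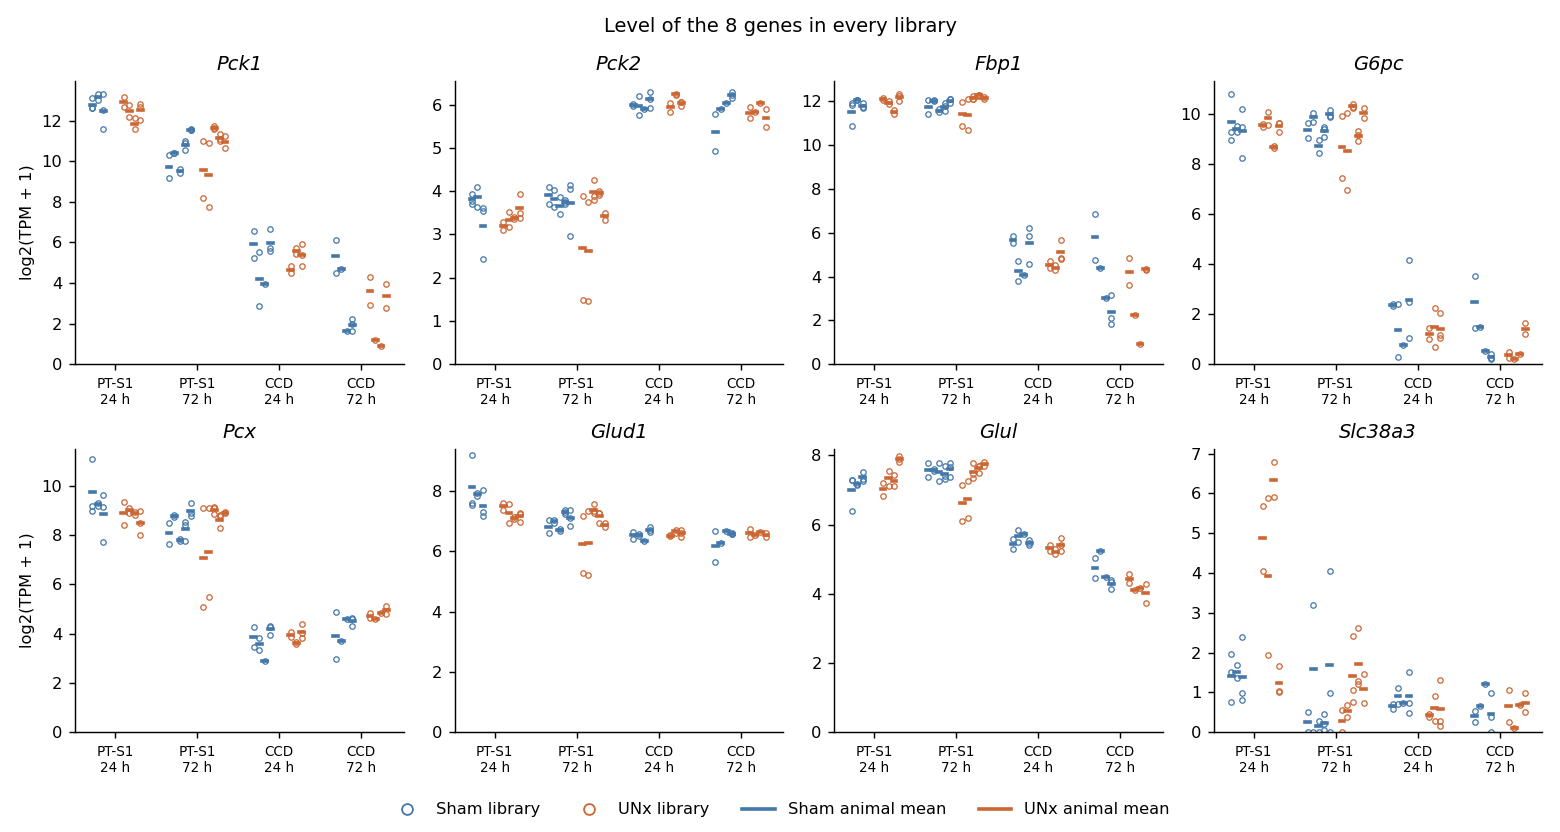
Level of each of the 8 genes on the log2(TPM + 1) scale in every library (open circles, libraries of an animal stacked above each other) with the mean of each animal (bars), for sham (blue) and UNx (orange) in the 4 tables. Sham and UNx animals overlap in most panels; Slc38a3 in PT-S1 24 h stands high in 3 of 4 UNx animals, and Pck1 is lower in both groups of PT-S1 72 h than of PT-S1 24 h.

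UNx was first compared with sham in PT-S1 at 24 h, which addresses the early state of the remaining kidney. None of the 8 genes passed an adjusted p of 0.05 in limma, nor did any of the 11874 genes tested (0%), of which the smallest adjusted p was 0.109. At an unadjusted p under 0.05, 1 of the 8 genes was higher, Slc38a3, and 1 was lower, Glud1, where 17.8% of all genes tested reached that level. The groups did not overlap for 1 of the 8 genes, Glud1, and for 14.9% of all genes tested. The members' median change was -0.15, against -0.19 for all genes.

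Slc38a3 held the largest difference. The sham animals stood at 1.80, 1.89 and 1.99 TPM and the UNx animals at 33.1, 30.4, 83.6 and 1.42 TPM. UNx animals 1 to 3 were thus all far above the sham animals, while animal 4 was below them, so the groups overlapped. The change was 2.65 on the log2(TPM + 1) scale (SE 0.896, 95% interval 0.66 to 4.64, limma adjusted p = 0.254), and 5 of 11874 genes had a larger one. As the labels give the animals, p-values here and below measure the spread between animals of a group. Without UNx animal 4 the change was 3.60 and passed (limma adjusted p = 0.0407). It also passed when animals were weighted by their residual spread, at 2.45 (limma adjusted p = 0.0362). In that weighted fit 1426 of the 11874 genes passed. With any other animal left out Slc38a3 did not pass, with changes from 1.90 to 2.71.

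Libraries of 1 animal differed as well. The libraries of UNx animal 1 held 15.5 and 50.7 TPM of Slc38a3, those of animal 2 held 2.84 and 58.0, those of animal 3 held 109 and 58.6, and those of animal 4 held 1.06, 1.00 and 2.19. In the 8 sham libraries the lowest was 0.68, the median 1.70 and the highest 4.26 TPM. So 5 of 9 UNx libraries lay above every sham library, and the 4 others lay within the sham range.

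Slc7a13, an amino acid carrier that marks the last proximal segment, is given beside it since Slc38a3 is known from that segment. In the UNx libraries of animals 1 to 4, in the same order, it held 14.5 and 10.3, 0.60 and 338, 24.1 and 64.9, and 0.57, 0.36 and 1.82 TPM. In 2 sham libraries it held 103 and 110 TPM, at which Slc38a3 stood at 2.88 and 4.26 TPM. In UNx animal 1 it held 14.5 and 10.3 TPM with Slc38a3 at 15.5 and 50.7 TPM. The summed level of the 6 markers of the last segment ran from 700 to 2282 TPM in sham and from 576 to 3715 TPM in UNx libraries, with 4 and 5 of the 6 markers at a mean of at least 1 TPM. In the UNx libraries, in the same order, the sum was 1500 and 2648, 576 and 3715, 1996 and 2159, and 959, 1125 and 1337 TPM. Every UNx library with Slc38a3 above the sham range thus had a higher sum, and more Slc7a13, than every other UNx library. Sham libraries with sums of 1996 and 2282 TPM held Slc38a3 at 1.84 and 2.88 TPM. Cyp7b1, one of them, averaged 0.0956 and 0.602 TPM. The part of late proximal RNA in the Slc38a3 difference was not tested.

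**Figure D3:**
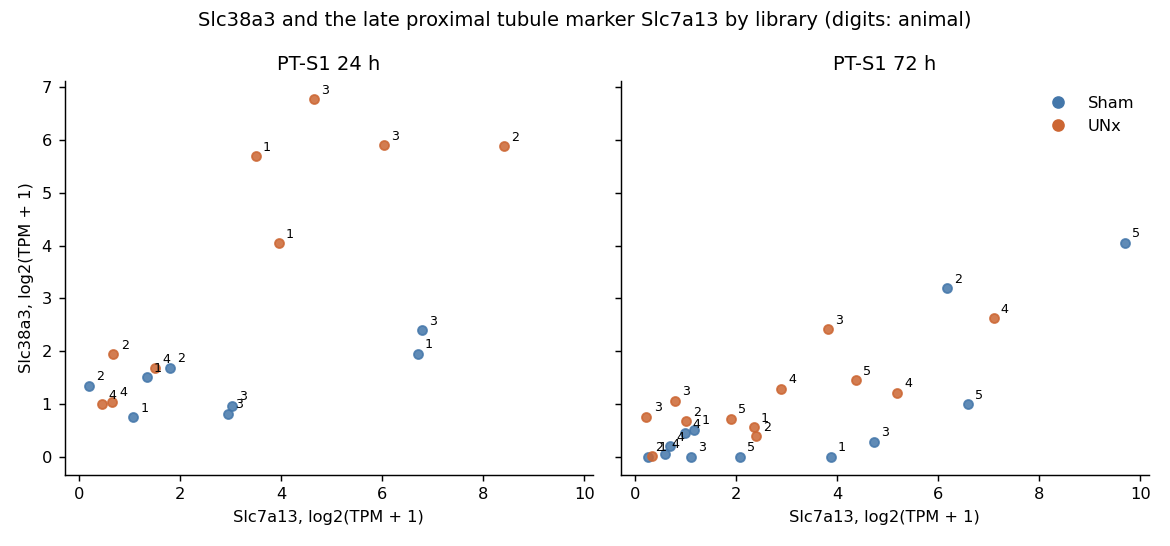
Slc38a3 against Slc7a13 in every PT-S1 library on the log2(TPM + 1) scale, at 24 h (left) and 72 h (right), for sham (blue) and UNx (orange), with the animal number beside each point. At 24 h, 5 UNx libraries of animals 1 to 3 lie above all sham libraries, including the 2 sham libraries with Slc7a13 at 103 and 110 TPM; at 72 h the highest Slc38a3 value, 15.6 TPM, is a sham library with Slc7a13 at 828 TPM.

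Glud1 was the gene with separated groups at 24 h. The sham animals held 323, 237 and 188 TPM and the UNx animals 179, 156, 137 and 143 TPM, so every UNx animal was below every sham animal. The change was -0.59 (SE 0.181, 95% interval -0.99 to -0.19, limma adjusted p = 0.254), and -0.39 relative to the median of all genes. The highest sham library, at 588 TPM, was one of the 5 with a low correlation. Without those libraries the change was -0.46 (limma adjusted p = 0.111). With animals weighted it was -0.57 and passed (limma adjusted p = 0.027), as did 1426 of the 11874 genes tested.

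None of the enzymes of glucose synthesis passed the adjusted threshold. Pck1 held 7138, 9291 and 6403 TPM in sham and 7867, 5856, 3744 and 5946 TPM in UNx animals, with a change of -0.37 (SE 0.266, limma adjusted p = 0.435). Pcx was 744 ± 305 TPM (SD, n = 3) for sham and 466 ± 62.0 TPM (SD, n = 4) after UNx, with a change of -0.47 (SE 0.222, limma adjusted p = 0.293). All 4 UNx animals, from 377 to 514 TPM, were below the lowest sham animal in the mean of TPM, at 526 TPM, but on the log scale of the test the groups overlapped. The highest library of Pcx, a sham one at 2190 TPM, was again one of low correlation, and without such libraries the change was -0.43 (limma adjusted p = 0.142). Fbp1 was 3659 ± 584 and 4034 ± 782 TPM, and G6pc was 787 ± 149 and 703 ± 216 TPM (SD, n = 3 and 4). Their changes of 0.15 and -0.07 had 95% intervals from -0.32 to 0.62 and from -0.63 to 0.5. The sign of G6pc turned with median-ratio scaling, to 0.17, and that of Fbp1 with weighted animals, to -0.0048.

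The last members in PT-S1 24 h were Pck2 and Glul. Pck2 was 11.9 ± 2.71 TPM (SD, n = 3) for sham and 9.56 ± 1.3 TPM (SD, n = 4) after UNx, a change of -0.24 (SE 0.21, limma adjusted p = 0.521) that turned to 0.03 with quantile normalization. Glul was 146 ± 16.4 TPM (SD, n = 3) and 171 ± 46.2 TPM (SD, n = 4), a change of 0.21 (SE 0.209, limma adjusted p = 0.573), with UNx animal 4 highest at 237 TPM. That animal, lowest in Slc38a3, was thus highest in Glul.

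Other genes of the pathway were taken from lists chosen with earlier results of these data known, and are described by counts. No gene of these lists passed the adjusted threshold in PT-S1 24 h. Of 19 other gluconeogenic enzymes and carriers, 2 were higher and 0 lower at an unadjusted p under 0.05, and their median change was 0.16. Eno1, the enolase, averaged 677 ± 52.3 TPM (SD, n = 3) for sham and 1153 ± 183 TPM (SD, n = 4) after UNx (limma adjusted p = 0.228). Of 12 genes for the entry of substrates, 2 were higher and 0 lower: Ldha, lactate dehydrogenase, at 1374 and 1964 TPM, and Khk, ketohexokinase, at 702 and 1019 TPM. Of 15 tested genes of glutamine and glutamate handling, 0 were higher and 2 lower. These were Aldh4a1, which makes glutamate from proline, at 371 and 201 TPM, and Ogdh, a subunit of the 2-oxoglutarate dehydrogenase. Ogdh averaged 577 ± 282 TPM (SD, n = 3) for sham and 292 ± 25.6 TPM (SD, n = 4) after UNx. All 4 UNx animals were above all 3 sham animals for Eno1 and Ldha, and below them for Aldh4a1.

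Transport and control genes in PT-S1 24 h are given in the same way. Of 6 tested genes of ammonium and bicarbonate transport, 1 was higher, Car4, the membrane carbonic anhydrase, at 111 ± 32.5 TPM (SD, n = 3) and 289 ± 101 TPM (SD, n = 4). Slc4a4, the basolateral bicarbonate cotransporter, was lower at 751 ± 345 TPM (SD, n = 3) and 436 ± 24.7 TPM (SD, n = 4). Of 13 tested regulators of gluconeogenesis, 8 were lower and 0 higher at an unadjusted p under 0.05, with a median change of -0.54. Nr3c1, the glucocorticoid receptor, averaged 39.3 and 24.6 TPM (limma adjusted p = 0.254). Over all genes the same count was 308 higher and 1801 lower, and with median-ratio scaling 1124 higher and 642 lower. Of 6 tested glucocorticoid response genes, 2 were lower, Mt2 and Klf9. Mt2, a metallothionein, averaged 19.4 ± 16.1 TPM (SD, n = 3) and 4.86 ± 2.20 TPM (SD, n = 4). Klf9 averaged 50.1 and 33.8 TPM. Of 7 tested fasting response genes, 3 were higher and 0 lower, with a median change of 1.12. Among them was Acot1, an acyl-CoA thioesterase, which averaged 27.4 and 77.8 TPM.

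In PT-S1 at 72 h none of the 8 genes reached an adjusted p of 0.05 (0% of 11886 genes tested), and none reached an unadjusted p under 0.05, a level reached by 20.5% of all genes. Groups overlapped for all 8 genes, while 5.56% of all genes did not overlap. Pck1 held 911, 1343, 738, 1804 and 2983 TPM in sham and 1162, 1053, 3197, 2260 and 2014 TPM after UNx, which is a change of 0.13 (SE 0.482, 95% interval -0.92 to 1.17, limma adjusted p = 0.878). Fbp1 was 3702 ± 488 and 4040 ± 953 TPM, and G6pc 736 ± 241 and 812 ± 333 TPM (SD, n = 5 and 5). Pcx was 355 ± 119 and 401 ± 107 TPM, and Pck2 13.0 ± 0.868 and 10.8 ± 3.72 TPM (SD, n = 5 and 5). Glud1 was 128 ± 21.2 and 124 ± 31.7 TPM, and Glul 188 ± 7.18 and 163 ± 50.8 TPM (SD, n = 5 and 5). The largest change of these by size was that of Pck2, -0.45 (SE 0.272, limma adjusted p = 0.311).

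Among the UNx libraries at 72 h, 2 stood low in several of the members. A library of UNx animal 1 and a library of UNx animal 2 held Pck1 at 286 and 215 TPM, where the other library of each animal held 2038 and 1892 TPM. The same libraries were the lowest UNx ones in Pck2, at 1.78 and 1.76 TPM, in Pcx, at 32.9 and 44.0 TPM, in Glud1, at 38.3 and 36.0 TPM, and in Glul, at 67.1 and 72.6 TPM. Both are among the 5 with a low correlation, and their low values were not limited to the members. The 8 early proximal markers summed to 2577 and 2627 TPM in them, and to 18662 and 19981 TPM in the other library of each animal. Slc34a1 stood at 1272 and 1360 TPM, against 10881 and 11075 TPM. Genes at 1 TPM or more numbered 9247 and 9632, against 11887 and 11876. With all libraries the changes on the log2 scale were -0.19 for Pcx, -0.11 for G6pc, -0.20 for Glud1 and -0.45 for Pck2. For Pcx and G6pc that sign is opposite to the difference of the mean TPM, which was higher after UNx. Without the libraries of low correlation the changes were 0.72 for Pck1, 0.58 for Pcx, 0.45 for G6pc, 0.31 for Fbp1, 0.21 for Glud1 and 0.025 for Pck2. The signs of Pcx, G6pc, Glud1 and Pck2 thus turned, and none passed (limma adjusted p = 0.277 for Pck1, 0.209 for Pcx and 0.218 for Fbp1). With animals weighted, Fbp1 passed at 0.34 (limma adjusted p = 0.0499), as did 1346 of the 11886 genes tested.

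Slc38a3 was low in PT-S1 at 72 h. The sham animals held 0.215, 4.07, 0.11, 0.183 and 5.53 TPM and the UNx animals 0.245, 0.455, 2.04, 2.65 and 1.20 TPM. The means of sham animals 2 and 5 rest on single libraries of 8.14 and 15.6 TPM, the latter with Slc7a13 at 828 TPM. The mean TPM was 2.02 in sham and 1.32 after UNx, yet the change, an average of log values, was 0.22 (SE 0.371, limma adjusted p = 0.697). Taken from the log2 of the mean TPM of each animal it was -0.052. The highest UNx library at 72 h, at 5.18 TPM, was below 5 of the 9 UNx libraries of 24 h, a comparison across tables.

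**Figure D4:**
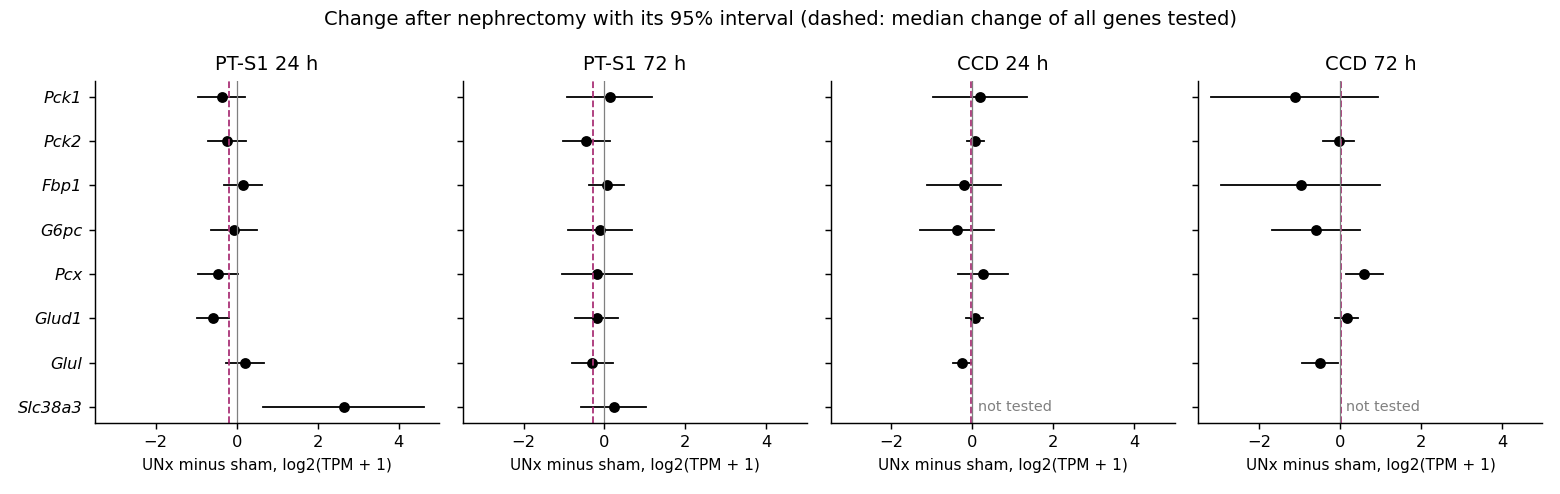
Change of each gene, UNx minus sham, on the log2(TPM + 1) scale (points) with its 95% interval (lines) in the 4 tables; the dashed line is the median change of all genes tested and the grey line is 0. The interval of Slc38a3 in PT-S1 24 h runs from 0.66 to 4.64, those of most other genes span 0, and Slc38a3 was not tested in CCD.

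Whether the change after UNx differed between the times was tested as the difference of both changes, 72 h minus 24 h. In PT-S1 0 of 11455 genes passed (0%), and 381 had an unadjusted p under 0.05. Slc38a3 had the largest difference of the 8, -2.43 (SE 0.991, 95% interval -4.50 to -0.35, limma adjusted p = 0.998). Glul differed by -0.51, Pck1 by 0.50, Glud1 by 0.39 and Pcx by 0.28, with intervals that span 0. Without the low-correlation libraries 187 genes passed, none of them among the 8, and the differences were 1.19 for Pck1 (limma adjusted p = 0.158), 1.00 for Pcx (0.0709) and 0.67 for Glud1 (0.0738). In CCD 0 of 13253 genes passed (0%), with 658 at an unadjusted p under 0.05, and the differences of the 7 tested members all had intervals that span 0.

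The lists of other pathway genes in PT-S1 72 h held no gene past the adjusted threshold. Of 19 gluconeogenic enzymes and carriers 1 was lower at an unadjusted p under 0.05, Pgam1, a phosphoglycerate mutase, at 59.2 and 50.1 TPM, and Pgk1, the phosphoglycerate kinase, stood at 84.3 and 68.7 TPM. Of 13 tested regulators 9 were lower and 0 higher, with a median change of -0.54 against -0.29 for all genes. Over all genes the same count was 158 higher and 2274 lower, with median-ratio scaling 880 higher and 645 lower, and without the libraries of low correlation 1148 higher and 968 lower. Insr, the insulin receptor, averaged 16.7 ± 2.69 TPM and 9.83 ± 3.53 TPM (SD, n = 5 and 5), and Foxo3, a forkhead factor under insulin control, 3.10 and 1.61 TPM (limma adjusted p = 0.237 for both). Klf9 averaged 48.3 and 33.2 TPM and Tsc22d3, a glucocorticoid target, 53.0 and 35.1 TPM. Txnip, of the fasting list, averaged 15.5 and 8.88 TPM. None of 12 substrate entry genes, 15 tested glutamine and glutamate genes and 6 tested transport genes reached an unadjusted p under 0.05. The smallest p among the substrate genes belonged to Gpt2, an alanine aminotransferase, at 54.5 and 45.8 TPM, and Gk, glycerol kinase, at 155 and 130 TPM. Among the glutamine and glutamate genes it belonged to Oat, ornithine aminotransferase, at 293 and 228 TPM, and Slc38a2, a neutral amino acid carrier, at 10.4 and 7.66 TPM. Among the transport genes it belonged to Slc9a3, the apical sodium-proton exchanger, at 34.9 and 31.2 TPM, and Car4 at 164 and 225 TPM.

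In CCD at 24 h none of the 7 tested members passed the adjusted threshold, which 0.987% of 13775 genes did. At an unadjusted p under 0.05 stood 1 member, Glul, against 15.5% of all genes, and Glul was also the 1 member whose groups did not overlap, against 15.1% of all genes. The sham animals held 42.7, 50.2, 51.9 and 43.6 TPM of Glul and the UNx animals 39.0, 36.3 and 42.0 TPM, all lower. The change was -0.26 (SE 0.0985, 95% interval -0.48 to -0.036, limma adjusted p = 0.252). It kept its sign in all alternatives, from -0.31 to -0.21. Of 7 tested principal cell markers, 3 were higher and 0 lower at an unadjusted p under 0.05, with a median change of 0.014. Their sum ran from 24909 to 51824 TPM over sham and from 47194 to 73787 TPM over UNx libraries. Aqp2 averaged 22506 ± 13166 TPM (SD, n = 4) for sham and 41324 ± 9484 TPM (SD, n = 3) after UNx. The part of cell composition in the CCD changes was not tested.

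The other CCD genes at 24 h overlapped between groups. Pck2 was 63.2 ± 4.36 TPM (SD, n = 4) for sham and 66.4 ± 7.32 TPM (SD, n = 3) after UNx, and Glud1 92.0 ± 9.85 and 95.7 ± 4.73 TPM (SD, n = 4 and 3). Their changes of 0.07 and 0.06 had 95% intervals from -0.14 to 0.29 and from -0.15 to 0.27, the narrowest of the set. Pcx was 12.3 ± 4.64 and 14.1 ± 2.47 TPM, Pck1 42.8 ± 26.6 and 37.9 ± 11.8 TPM, and Fbp1 34.1 ± 19.3 and 25.9 ± 7.97 TPM (SD, n = 4 and 3). G6pc was 3.64 ± 2.90 and 1.79 ± 0.423 TPM (SD, n = 4 and 3). Slc38a3, at 0.768 ± 0.192 and 0.498 ± 0.135 TPM (SD, n = 4 and 3), was under the filter and not tested.

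Of the other lists in CCD 24 h, 1 of 14 tested regulators passed the adjusted threshold. Insr was 44.2 ± 1.77 TPM (SD, n = 4) in sham and fell to 25.6 ± 4.78 TPM (SD, n = 3) after UNx, a change of -0.80 (SE 0.129, limma adjusted p = 0.0321). Of 9 tested glucocorticoid response genes 1 passed: Zbtb16, a zinc finger factor induced by glucocorticoids, fell from 22.7 ± 4.39 TPM (SD, n = 4) to 9.61 ± 2.30 TPM (SD, n = 3), a change of -1.17 (SE 0.186, limma adjusted p = 0.032). All UNx animals were below all sham animals for both genes. Both calls rest on the full set of animals: the Insr call was lost on leaving out any 1 animal except UNx animal 3, with adjusted p up to 0.0994, and that of Zbtb16 on leaving out any except sham animal 2 and UNx animal 3, with adjusted p up to 0.127. None of the other lists held a gene past the threshold. Of 19 gluconeogenic enzymes and carriers, 2 were higher at an unadjusted p under 0.05: G6pc3, the ubiquitous glucose-6-phosphatase subunit, at 99.8 and 113 TPM, and Mdh2, mitochondrial malate dehydrogenase, at 931 and 1076 TPM. G6pc3 was thus more abundant in CCD than G6pc, at 3.64 TPM in sham. Of 9 tested substrate genes 1 was higher, Gpd1, a glycerol-3-phosphate dehydrogenase, at 21.8 and 29.9 TPM, and Slc2a5, a fructose carrier, followed at 1.69 and 0.55 TPM. Of 15 tested glutamine and glutamate genes 1 was higher, Slc1a5, a glutamine carrier, at 130 and 158 TPM, and 1 lower, Slc1a1, a glutamate carrier, at 1.97 and 0.699 TPM. Of 7 tested transport genes 1 was lower, Car4, at 15.9 ± 16.5 and 3.65 ± 1.77 TPM (SD, n = 4 and 3). Slc9a3 followed at 3.48 ± 5.47 and 0.141 ± 0.0659 TPM (SD, n = 4 and 3). For both genes the SD of the sham animals was larger than their mean. Of 5 tested early proximal markers, 0 were higher and 0 lower at an unadjusted p under 0.05, with a median change of -0.24. Of 5 tested markers of the late proximal tubule, 3 were lower and 0 higher, with a median change of -0.56. The summed level of the 6 listed markers ranged from 141 to 285 TPM over sham libraries and from 103 to 187 TPM over UNx libraries, with Slc7a12 under 1 TPM on average in both groups. Cyp7b1, one of them, averaged 68.6 and 60.8 TPM in CCD and only 0.0956 TPM in sham PT-S1. In CCD the sum therefore does not stand for late proximal RNA alone. Slc7a13 averaged 7.13 and 2.37 TPM. The part of late proximal RNA in the values of Car4, Slc9a3, Slc1a1 and Slc2a5 was not tested. Of 4 tested markers of the thick ascending limb, 1 was lower and 0 higher, with a median change of -0.84. Their sum had a median of 134 TPM and a maximum of 6886 TPM over sham libraries, and a maximum of 228 TPM over UNx libraries. Of 6 tested fasting response genes 3 were higher, among them Acot1, at 18.8 and 45.7 TPM.

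In CCD at 72 h none of the 7 tested members passed the adjusted threshold, which 0.595% of 13770 genes did. At an unadjusted p under 0.05 stood 2 members, Pcx higher and Glul lower, against 7.49% of all genes. No member had groups without overlap, against 4.77% of all genes. Pcx held 17.6, 12.0, 23.4 and 21.9 TPM in sham and 25.7, 23.2, 27.8 and 30.3 TPM in UNx animals, so that only the lowest UNx and the highest sham animal crossed. Its change was 0.60 (SE 0.208, 95% interval 0.14 to 1.06, limma adjusted p = 0.463). A sham library of low correlation held Pcx at 6.86 TPM, the lowest of the table, and without it the change was 0.36 (limma adjusted p = 0.492). Glul held 26.4, 36.7, 21.2 and 18.7 TPM in sham and 20.7, 16.3, 17.1 and 15.5 TPM in UNx animals. Its change was -0.50 (SE 0.2, 95% interval -0.95 to -0.057, limma adjusted p = 0.589). Glul was thus lower in UNx at both times, past the adjusted threshold at neither.

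Pck1, Fbp1 and G6pc varied most between CCD animals at 72 h. Pck1 held 45.2, 25.0, 2.07 and 2.90 TPM in sham and 12.5, 1.32, 0.88 and 10.2 TPM in UNx animals, and Fbp1 70.1, 20.1, 7.08 and 4.70 TPM and 19.4, 3.68, 0.9 and 19.1 TPM. Sham animal 1 was highest in both and in G6pc, at 6.15 TPM. Its library of low correlation held 68.8 TPM of Pck1, 114 TPM of Fbp1 and 10.5 TPM of G6pc, and its other library 21.6, 25.8 and 1.76 TPM. By that other library alone the animal was still highest in Fbp1, and below sham animal 2 in Pck1 and G6pc. The library of low correlation held Slc34a1 at 60.1 TPM and Slc7a13 at 46.1 TPM, the highest sham values of the table. Without it the change of Pck1 moved from -1.12 to -0.92 and that of Fbp1 from -0.97 to -0.71, and G6pc had a mean under 1 TPM and was not tested. Pck2 was 59.6 ± 13.3 and 56.7 ± 5.54 TPM, and Glud1 87.2 ± 13.0 and 95.5 ± 3.74 TPM (SD, n = 4 and 4). Slc38a3, at 0.663 ± 0.452 and 0.504 ± 0.284 TPM (SD, n = 4 and 4), was not tested.

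Of the other lists in CCD 72 h, 1 of 19 gluconeogenic enzymes and carriers passed the adjusted threshold, and 5 were higher and 0 lower at an unadjusted p under 0.05. Pgam1 rose from 87.1 ± 12.0 TPM (SD, n = 4) to 153 ± 12.9 TPM (SD, n = 4), a change of 0.81 (SE 0.115, limma adjusted p = 0.0177), with all UNx above all sham animals. Pgam1 acts in glycolysis as well as in gluconeogenesis. Its call was lost on leaving out any 1 UNx animal, with adjusted p up to 0.0834. None of the other lists held a gene past the threshold. Of 13 tested regulators 3 were lower at an unadjusted p under 0.05, led by Irs2, an insulin receptor substrate, at 63.9 and 22.0 TPM, and Cebpb, a transcription factor, at 31.6 and 17.6 TPM. Of 9 tested glucocorticoid response genes 3 were lower, led by Per1, a clock gene, at 10.2 and 3.01 TPM, and Zbtb16 at 11.7 and 6.33 TPM. Of 6 tested fasting response genes 1 was lower, Pdk4, a pyruvate dehydrogenase kinase, at 33.1 and 16.2 TPM, with Txnip next at 717 and 871 TPM. Of 15 tested glutamine and glutamate genes 1 was higher, Slc6a19, a neutral amino acid carrier, at 3.22 and 4.88 TPM, with Ogdh next at 452 and 556 TPM. None of 8 tested substrate genes and 6 tested transport genes reached an unadjusted p under 0.05. Khk stood there at 54.8 and 43.5 TPM, Gpt, an alanine aminotransferase, at 9.05 and 11.0 TPM, Car2, the cytosolic carbonic anhydrase, at 2346 and 2640 TPM, and Car4 at 3.87 and 1.40 TPM.

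The spread of the genes differed between segments. In CCD 24 h the SD between animals on the log2(TPM + 1) scale was 0.123 for Pck2, 0.127 for Glud1 and 0.125 for Glul, and 0.895 for Pck1, 0.694 for Fbp1 and 0.663 for G6pc. In PT-S1 24 h it was 0.409 for Pck1, 0.285 for Fbp1 and 0.407 for G6pc. Libraries of an animal also differed in PT-S1. In PT-S1 72 h the SD between libraries of an animal was 0.841 for Pck1 and 1.06 for Pcx, against 0.925 and 0.743 between animals. These SDs include the libraries of low correlation. The SD between animals is that of animal means, so it also holds the spread of their libraries. Slc38a3 in PT-S1 24 h had SDs of 1.10 and 1.66.

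Which genes varied most like each of 7 members was described over the 17 PT-S1 animals, after centring within each table and group, among 6330 genes with a mean of at least 10 TPM in both tables. Slc38a3 was under that level and was left out. The points share library and depth, and the correlations rest partly on the libraries of low correlation. With all libraries the closest gene by Pearson's r was Wsb1 for Pck1 (0.952), Pcid2 for Pck2 (0.958), Pmpcb for Fbp1 (0.969), Tmem140 for G6pc (0.895), Nr1d1 for Glud1 (0.937) and Fam192a for Glul (0.943). Others among the closest 3 were Ces1e and Ces1d for Pck1, Ttc5 and Orc4 for Pck2, Casp6 and Akr1b10 for Fbp1, Slc34a1 (0.876) and Abcd4 for G6pc, Nlrx1 and Sidt2 for Pcx, Afm and Slc26a11 for Glud1, and Eipr1 and H1f0 for Glul. Without the low-correlation libraries, Wsb1 was still first for Pck1 (0.894) and became first for Glud1 (0.842), Slc34a1 was among the closest 3 for G6pc (0.783) and Pmpcb second for Fbp1 (0.916). The closest gene of Pck2 then had an r of 0.788 and was a different one, Grtp1. None of these 7 reached the top 3 of another.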

How the data were processed

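The authors deposited 4 tables of TPM per gene, 1 for each segment and time, and per the submitters' processing notes the tools were STAR and RSEM 1.3.3 with build GRCm39, with no role or order given. Of 69 library columns, 47 were matched to 1 sample and 22 to a group and animal. TPM keeps no depth, so the depth is unknown.

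The animal was the replicate: log2(TPM + 1) was averaged over the libraries of an animal. Genes with a mean of at least 1 TPM over animals were tested in each table with limma 3.58.1 (limma-trend, R 4.3.3), with Benjamini-Hochberg adjustment over all genes tested and a threshold of 0.05. The difference of changes between times was a contrast in a 4-group model. The scripts were tested on simulated data. No test was made between segments. The members and gene lists were chosen with earlier results of these data known. Named were the 8 members, the genes of each other list past the threshold in a table (with none, the 2 with the smallest p), and the 3 genes most correlated with each member that had a mean of at least 10 TPM in both PT-S1 tables, passing over predicted genes and pseudogenes. Alternatives were another pseudocount, other filters, quantile and median-ratio scaling, other treatments of libraries, animal weights (arrayWeights), a block by animal number, and leaving out animals or libraries of low correlation. Equal animal numbers in sham and UNx were not taken as pairs. A few genes that this rule names are not reported here.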

Additional observations from a re-analysis of the deposited data

Results flagged for a closer look

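Of 48 groups of 4 or 5 animals and 1 gene examined for an animal apart from the rest, 2 held one, where chance gives about 1 in 20. In CCD 72 h, G6pc stood at 1.695 TPM in UNx animal 4 and at 0.16 to 0.33 TPM in the 3 others. In the same group Slc38a3 stood at 0.08 TPM in UNx animal 2 and at 0.61 to 0.685 TPM in the 3 others.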

How the results depend on the processing

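Depth is unknown, small numbers of animals limit every comparison, and the cause of the shifts below was not tested. No member passed the threshold in CCD or in the difference of changes under any alternative run. In PT-S1 24 h, 2 members passed with arrayWeights, 1 with a replicate block and 0 to 1 with an animal left out. In PT-S1 72 h, 1 passed with arrayWeights. With arrayWeights, 1426 of 11874 genes passed in PT-S1 24 h and 1346 of 11886 in PT-S1 72 h.

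The count of genes past the threshold moved more. In PT-S1 24 h it went from 0 to 2 with TPM above 0 in at least 3 animals, 1 under median-ratio scaling, 1 under quantile normalization, 1 when the low-correlation libraries were left out, 85 with every library as a replicate, 100 with animal as a random effect, 1426 with arrayWeights and 0 to 8 with an animal left out. In PT-S1 72 h it went from 0 to 18, 10, 1346 and 1 with every library, the random effect, arrayWeights and the low-correlation libraries left out. In CCD 24 h it went from 136 to 1 with the filter on TPM above 0, 1027 with every library, 485 with the random effect and 7 to 78 with an animal left out. In CCD 72 h it went from 82 to 7 with that filter, 39 with a mean of at least 5 TPM, 150 with every library, 129 without the low-correlation library and 8 to 73 with an animal left out. For the difference of changes it went from 0 to 1 with that filter and 187 without low-correlation libraries in PT-S1, and to 1 with every library and 0 to 1 with an animal left out in CCD.

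Higher against lower calls also moved with scaling: at an unadjusted p under 0.05, PT-S1 72 h held 158 higher and 2274 lower genes, and 880 and 645 with median-ratio scaling. In CCD 24 h the adjusted calls were 45 higher and 91 lower, and 81 and 92 with that scaling.

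With the replicate block the counts were 81 in PT-S1 24 h, 0 in CCD 24 h and 3 in CCD 72 h, and it moved Slc38a3 in PT-S1 24 h to 3.60 (limma adjusted p = 0.00754) and Fbp1 in CCD 24 h to 0.016. An animal with no same-numbered animal in the other group adds nothing to a block fit, so these 2 values equal those without UNx animal 4 and without sham animal 4. The deviations of same-numbered animals correlated from -0.366 to 0.328, and in no table did every animal correlate best with its own number.

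Changes of members that turned sign were these. In PT-S1 24 h: Pck2 0.030 (quantile), G6pc 0.17 (median-ratio), 0.25 (arrayWeights) and -0.21 to 0.17 (an animal left out), and Fbp1 -0.0048 (arrayWeights). In PT-S1 72 h: Fbp1 -0.12 with quantile normalization; G6pc 0.28, Pcx 0.20, Glud1 0.19 and Glul 0.088 with median-ratio scaling; G6pc 0.12, Pcx 0.20 and Slc38a3 -0.052 from the log2 of the mean TPM; G6pc 0.50, Pcx 0.53, Glud1 0.025 and Glul 0.11 with arrayWeights. Without the low-correlation libraries Pck2 was 0.025, G6pc 0.45, Pcx 0.58 and Glud1 0.21. With an animal left out Pck1 ran from -0.15 to 0.43, Fbp1 from -0.043 to 0.18, G6pc from -0.35 to 0.099 and Pcx from -0.40 to 0.091. In CCD 24 h Pck1 was -0.036 with every library, and with an animal left out Pck1 ran from -0.16 to 0.52, Pck2 from -0.014 to 0.14, Fbp1 from -0.47 to 0.063 and Glud1 from -0.0041 to 0.12. In CCD 72 h Pck2 ran from -0.21 to 0.078.

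The difference of changes turned sign in PT-S1 for G6pc, at 0.065 (quantile), 0.11 (median-ratio), 0.33 (log2 of the mean), 0.51 (without low-correlation libraries) and -0.29 to 0.17 (an animal left out). It did so for Fbp1, at 0.055 (median-ratio), 0.28 (without those libraries) and -0.24 to 0.032, and for Pck2, at 0.41 (without those libraries) and -0.37 to 0.0072. In CCD it did so for G6pc, at 0.18 (every library) and -0.51 to 0.13, for Glud1, at -0.026 (without the low-correlation library), and for Pck2, from -0.28 to 0.0059. G6pc in CCD 72 h had a mean under 1 TPM without that library and was not tested.

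Among the other genes past the threshold, Insr and Zbtb16 in CCD 24 h and Pgam1 in CCD 72 h kept their direction under every alternative run. They did not pass with the filter on TPM above 0 (limma adjusted p = 0.0895, 0.0922 and 0.0527) or with the replicate block (0.148, 0.151 and 0.0666), which in CCD 24 h leaves sham animal 4 out of the change.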
